A study of Mus musculus with 4 samples.

Results

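The Zfp genes, whose symbols are Zfp followed by a number, encode zinc finger proteins of several kinds, and 208 of them were well expressed in the libraries described here. They were chosen by symbol and by level: the mean over the 4 libraries had to reach 5 TPM, and names of pseudogenes were left out. TPM is a transcript abundance that is corrected for gene length and set to the same total in each library, so levels can be set side by side between genes. The table held 52192 gene identifiers and 408 Zfp genes after 8 pseudogene names were left out. Besides the 208 members, 103 Zfp genes had a mean of 1 to 5 TPM, 60 lay above 0 and under 1 TPM, and 37 were listed at 0 in every library. All 208 are annotated as protein-coding, on 20 chromosomes.

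RNA was sequenced from AML12 cells, an immortalised mouse hepatocyte line, 5 days after infection with lentivirus. The shSafb group (2 libraries) carried a short hairpin RNA against Safb, which encodes the nuclear matrix protein scaffold attachment factor B, and the shCtrl group (2 libraries) carried a control hairpin. Both groups were grown with 10% serum and 0.1 μM dexamethasone, a glucocorticoid. The labels give neither the sequence of the hairpins nor separate cultures for the replicates, so a p-value reflects only how far these libraries differed, and that spread may be technical.

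C2H2 zinc finger proteins hold DNA with repeated small folds, each pinned around a zinc ion by a pair of cysteines and a pair of histidines. Many also carry a KRAB domain, which recruits the corepressor TRIM28 (KAP1) and through it the histone methyltransferase SETDB1 and HP1 proteins, so that the bound DNA gains H3K9 trimethylation; many of their known targets are transposable elements and imprinted regions. Others carry a SCAN domain, through which they pair, or are activators, and the CCCH proteins of the Zfp36 family bind AU-rich messenger RNA and promote its decay. KRAB genes arose by repeated local duplication and lie in clusters.

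Safb, the targeted gene, had 15.8 and 15.02 TPM in the shSafb libraries, against 23.8 and 23.3 TPM in the shCtrl libraries, a log2 change of -0.56 ± 0.07 (SE; limma adjusted p = 0.00411). TPM holds no read totals, so the depth behind these values is unknown, and 12946 to 13117 genes per library had at least 1 TPM. Of 9 hepatocyte markers tested, 2 rose and 2 fell, Alb being among those that fell and Afp among those that rose. Of 11 proliferation markers 9 rose and 1 fell (Pcna), and their summed level was 560 and 558 TPM in shSafb, against 402 and 394 TPM in shCtrl. Markers of stromal cells summed to 2.70 and 3.24 TPM in shSafb, against 2.96 and 2.82 TPM in shCtrl, with Lrat at 0 throughout, and markers of macrophages to 2.83 and 3.09 TPM in shSafb, against 1.51 and 1.77 TPM in shCtrl, with Adgre1 at 0 throughout. Csf1r, the one macrophage marker that was tested, rose to 1.92 and 1.72 TPM in shSafb, against 0.239 and 0.450 TPM in shCtrl (limma adjusted p = 0.00852). Endothelial markers stayed at or below 0.144 TPM, with Cdh5 and Kdr at 0. Cholangiocyte markers summed to 904 and 908 TPM in shSafb, against 567 and 539 TPM in shCtrl, with Krt19 higher, Sox9 lower and Epcam at 0 or 0.112 TPM. Mitochondrial genes held 0.318% and 0.343% of TPM in shSafb, against 0.845% and 0.703% in shCtrl. The part of the proliferation, macrophage, cholangiocyte and mitochondrial differences in the Zfp values was not tested, and in bulk RNA a change in the mix of cells cannot be told apart from a change in RNA per cell.

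Among the 208 Zfp genes, 40 rose and 28 fell in shSafb cells, and 140 did not pass the test (limma, Benjamini-Hochberg adjusted p under 0.05 over all 13111 tested genes). That is 32.7% of them, against 44.3% of all tested genes and 48.9% of the 10071 genes with a mean of at least 5 TPM. By direction the shares were 19.2% higher and 13.5% lower for the Zfp genes, against 23.9% higher and 25.0% lower for all genes of that level. The lower share of calls went with smaller changes: the median size of a log2 change was 0.20 for the Zfp genes and 0.29 for all genes of that level, and the median standard errors were 0.09 and 0.08. The median signed log2 change was -0.04, against -0.01 for all genes of that level.

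A change of at least 1.5-fold was called for 11 Zfp genes that rose and 10 that fell, 10.1% of the members, against 19.9% of all genes of that level. The values of the groups did not overlap for 64 Zfp genes that were higher and 79 that were lower in shSafb, 68.8% of them, against 77.2% of all genes of that level and 74.7% of all tested genes. The summed level of the 208 genes was 3616 and 3589 TPM in shSafb, against 3652 and 3486 TPM in shCtrl, so the groups overlapped in this sum. Because the mean of both groups chose the members, 8 had a mean under 5 TPM in shSafb and 7 in shCtrl. With both group means at 5 TPM or more, 193 genes remained, of which 35 rose and 26 fell (31.6%). Without shSafb replicate 1, shSafb replicate 2, shCtrl replicate 1 and shCtrl replicate 2 in turn, 22, 21, 22 and 26 Zfp genes were called higher and 13, 20, 19 and 19 lower. Over all genes of that level the called share was then 31.7%, 33.0%, 37.3% and 38.0%, and for the Zfp genes 16.8%, 19.7%, 19.7% and 21.6%.

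Levels of the Zfp genes ran from 5.17 to 109 TPM, with a median of 11.7 TPM, and the share called grew with the level. It was 25.6% of the 86 genes at 5 to 10 TPM, against 42.6% of all genes at that level, and 31.9% of the 69 at 10 to 20 TPM, against 44.0%. At 20 to 50 TPM it was 41.9% of 43, against 48.4%, and at 50 TPM or above 6 of 10 were called, 60.0% against 58.3%. Of the 103 Zfp genes of 1 to 5 TPM, 7 rose and 8 fell (14.6%, against 29.1% of all genes at that level). Leaving out shSafb replicate 1, shSafb replicate 2, shCtrl replicate 1 and shCtrl replicate 2 in turn gave 2, 1, 3 and 1 of these genes higher and 2, 4, 2 and 4 lower. On each of these omissions the called share of all genes at that level fell too. With no filter on low genes 1 Zfp gene was higher and 3 lower (3.88%). Of all 3040 genes at that level, 256 were then higher and 261 lower, against 461 and 423 with the filter. Without the variance trend 12 of the Zfp genes were higher and 21 lower (32.0%, against 37.2% of all genes at that level). At the threshold itself, Zfp827 (mean 5.17 TPM), Zfp12 (5.18) and Zfp280c (5.19) lay just inside and Zfp119b (4.87), Zfp983 (4.83) and Zfp365 (4.82) just outside.

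**Figure D1:**
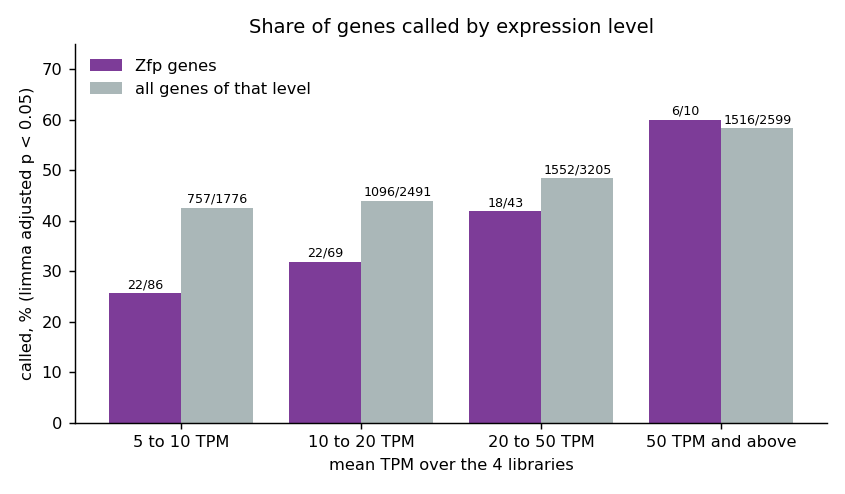
Share of genes called in either direction (limma adjusted p under 0.05, vertical axis in %) by mean TPM over the 4 libraries (horizontal axis), for the Zfp genes and for all genes of the same level, with the number called over the number of genes above each bar. The Zfp bar is lower at 5 to 10 TPM (25.6% against 42.6%), and the bars differ less at 50 TPM and above (60.0% against 58.3%, with 10 Zfp genes).

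The promoters of a few members that the results turn on are shown here, because they belong to genes that rose, and to Zfp943, which did not pass the test but shares its window with Zfp942; those on chromosome 17 lie in a single cluster. They are RefSeq's 250 bases before the annotated start (GRCm38.p6), read 5′ to 3′ on the gene's own strand, with CG dinucleotides in capitals. For Zfp942 and Zfp943, whose starts face away from each other, the 94 bases between the starts are given.
Zfp512 (chr5:31452186-31452435, plus strand): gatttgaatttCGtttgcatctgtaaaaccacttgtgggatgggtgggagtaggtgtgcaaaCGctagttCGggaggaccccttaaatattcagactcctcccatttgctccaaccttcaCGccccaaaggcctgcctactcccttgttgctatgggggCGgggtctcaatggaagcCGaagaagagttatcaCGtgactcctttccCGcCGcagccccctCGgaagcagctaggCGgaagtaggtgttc
Zfp948 (chr17:21566728-21566977, plus strand): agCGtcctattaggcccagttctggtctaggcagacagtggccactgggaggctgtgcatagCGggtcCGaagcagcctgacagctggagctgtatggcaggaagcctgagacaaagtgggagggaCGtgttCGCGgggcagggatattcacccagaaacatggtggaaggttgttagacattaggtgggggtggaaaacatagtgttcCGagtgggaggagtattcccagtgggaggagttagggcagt
Zfp53 (chr17:21488738-21488987, plus strand): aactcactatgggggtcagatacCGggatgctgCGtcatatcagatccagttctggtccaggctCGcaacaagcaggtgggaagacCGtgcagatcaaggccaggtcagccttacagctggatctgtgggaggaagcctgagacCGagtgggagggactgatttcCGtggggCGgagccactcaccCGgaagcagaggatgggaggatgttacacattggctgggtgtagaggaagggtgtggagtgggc
Zfp942 and Zfp943 (chr17:21962465-21962558, plus strand): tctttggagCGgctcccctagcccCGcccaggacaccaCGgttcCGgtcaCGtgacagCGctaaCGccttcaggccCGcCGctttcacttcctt
Zfp68 (chr5:138619744-138619993, minus strand): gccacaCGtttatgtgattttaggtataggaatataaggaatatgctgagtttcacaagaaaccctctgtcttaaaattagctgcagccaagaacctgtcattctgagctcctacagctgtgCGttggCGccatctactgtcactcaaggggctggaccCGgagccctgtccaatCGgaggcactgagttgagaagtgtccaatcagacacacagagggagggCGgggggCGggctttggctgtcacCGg
Zfp810 (chr9:22307639-22307888, minus strand): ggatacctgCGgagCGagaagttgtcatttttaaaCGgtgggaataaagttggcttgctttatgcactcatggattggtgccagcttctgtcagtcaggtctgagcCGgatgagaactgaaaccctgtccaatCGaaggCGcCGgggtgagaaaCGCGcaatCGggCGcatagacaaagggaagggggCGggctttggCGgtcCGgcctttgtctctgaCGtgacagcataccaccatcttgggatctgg

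These windows hold between 7 (Zfp948) and 15 (Zfp810) CG dinucleotides. Over the 173 members matched in the table, the median was 13 CG in 250 bases, against 6 over its 27025 genes, taking the richest window of a gene with several. The longest stretch that Zfp68 and Zfp810 have in common is 16 bases (gggggCGggctttggc), and that of Zfp948 and Zfp53 is 14 bases (aggaagcctgagac). The windows of Zfp68 and Zfp810 led to a search for CCAATCG, a variant of the CCAAT box, on both strands of the windows from 250 bases before to 50 after the start. It was present for 16 of 173 members (9.25%) and 3.07% of all genes, and since genes that rose gave the motif, no count by direction is given and these shares support nothing. The plain CCAAT letters, which CCAATCG contains, were present for 52.6% of the members and 41.1% of all genes, and no count by direction is given for the same reason. The motif ATGGCGG, part of the YY1 consensus, was present for 14.5% of the members and 4.69% of all genes. By direction it was present for 3 of 29 members called higher and 1 of 21 called lower. ACTACAA, from the ZNF143 consensus, was present for 6.94% and 3.78%, and for 0 of the 29 higher and 2 of the 21 lower. TGACGTCA, the cyclic AMP response element, was present for 4.05% and 2.03%, and for 2 of the 29 higher and 0 of the 21 lower. Each match is only a run of letters in a window. Unlike the members, the 27025 genes were not chosen by level, and only 10071 genes of the series had a mean of at least 5 TPM. No set of equal level or CG content was set beside the members, so whether these differences are particular to Zfp promoters was not tested.

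Zfp512 rose most in proportion to its error. Its human homologue ZNF512 is known to bind pericentric satellite DNA and promote heterochromatin there. It had 82.4 and 80.2 TPM in the shSafb libraries, against 40.0 and 38.9 TPM in the shCtrl libraries. Both shSafb values were higher than both shCtrl values by a wide margin, the means being 81.3 ± 1.55 and 39.4 ± 0.762 TPM (SD, n = 2 each), a log2 change of 1.05 ± 0.05 (SE; limma adjusted p = 7.4e-04). The gene, ENSMUSG00000062761, lies on the plus strand of chromosome 5 (31452431 to 31481754, mm10), and the call was kept in every alternative. Its paralogue Zfp512b did not pass the test, at 22.1 and 20.96 TPM in shSafb, against 21.3 and 21.4 TPM in shCtrl (log2 change 0.04 ± 0.07; limma adjusted p = 0.702).

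A KRAB pattern was found in 98 of the members, which had a median of 12 C2H2 fingers (2 to 30). Of these 98, 19 rose and 10 fell (29.6%), against 35.5% of the 110 members without it, of which 21 rose and 18 fell, and 48.9% of all genes of that level. The median log2 change was -0.05 for the KRAB genes and -0.03 for the others, and the KRAB genes had lower levels (median 9.86 TPM, against 14.6 TPM for the others). Without shSafb replicate 1, shSafb replicate 2, shCtrl replicate 1 and shCtrl replicate 2 in turn, 10, 12, 9 and 10 KRAB genes were called higher and 3, 6, 7 and 6 lower, and of the members without KRAB 12, 9, 13 and 16 were higher and 10, 14, 12 and 13 lower. No test was made of the difference between the classes.

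Zfp568, which in mice represses a placental transcript of Igf2, had 56.3 and 56.9 TPM in shSafb cells, against 29.4 and 28.0 TPM in shCtrl cells. That is a rise of 1.97-fold (log2 change 0.98 ± 0.05; limma adjusted p = 8.0e-04), and the groups did not overlap. Zfp948 followed, with 13.3 and 12.7 TPM in shSafb, against 6.04 and 6.51 TPM in shCtrl (log2 change 0.97 ± 0.09; limma adjusted p = 0.00251). Zfp51 had 7.39 and 7.50 TPM in shSafb, against 3.98 and 4.63 TPM in shCtrl (log2 change 0.69 ± 0.12; limma adjusted p = 0.0105), so it reached 5 TPM only through the shSafb libraries. Each of these calls was kept in every alternative.

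Zfp57, which keeps DNA methylation at imprinting control regions, had 12.3 and 16.8 TPM in shSafb, against 7.89 and 7.85 TPM in shCtrl (log2 change 0.82 ± 0.16; limma adjusted p = 0.0148). The groups did not overlap, but the shSafb values differed from each other more than the shCtrl values did, and leaving out shCtrl replicate 1 or shCtrl replicate 2 ended the call (adjusted p = 0.0632 and 0.0564). Zfp445, which acts with Zfp57 at imprinted regions, did not pass the test, at 36.2 and 34.9 TPM in shSafb, against 38.6 and 37.0 TPM in shCtrl (limma adjusted p = 0.406). Zfp809, which silences retroviral elements in mouse stem cells, did not pass either, at 23.2 and 18.9 TPM in shSafb, against 25.4 and 22.4 TPM in shCtrl (limma adjusted p = 0.332).

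The largest log2 change of a KRAB gene that rose was that of Zfp68, 1.11 ± 0.32 (limma adjusted p = 0.045), and it was also the least even. It had 23.4 and 14.1 TPM in shSafb, against 10.4 and 6.16 TPM in shCtrl, so in both groups replicate 1 was the higher library. With the replicate number as a block its adjusted p was 0.0038. The call was lost without shSafb replicate 1 (0.13), without shCtrl replicate 1 (0.0504), without shCtrl replicate 2 (0.147) and in 4 further settings. Transcripts of other genes overlap its exons on the opposite strand.

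Among the KRAB genes that fell, Zfp707 had the largest change of all 208 members. It had 7.54 and 9.08 TPM in shSafb, against 25.4 and 24.4 TPM in shCtrl, 2.99-fold lower (log2 change -1.46 ± 0.10; limma adjusted p = 0.00127). The gene, ENSMUSG00000034429, lies on the plus strand of chromosome 15 (75969123 to 75975868). Zfp560 had 13.5 and 13.0 TPM in shSafb, against 19.02 and 19.2 TPM in shCtrl (log2 change -0.47 ± 0.07; limma adjusted p = 0.00764). Both calls were kept in every alternative. Zfp90 was lower too (6.66 and 5.86 TPM in shSafb, against 10.1 and 10.4 TPM in shCtrl; limma adjusted p = 0.0101), but 77.1% of its 50-base exonic stretches occur in transcripts of other genes, so how its reads were assigned is uncertain. Zfp324 fell (5.87 and 6.89 TPM in shSafb, against 11.2 and 9.61 TPM in shCtrl; limma adjusted p = 0.0146), a call that was lost without shSafb replicate 1 (0.0601) and without shCtrl replicate 1 (0.0635).

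**Figure D2:**
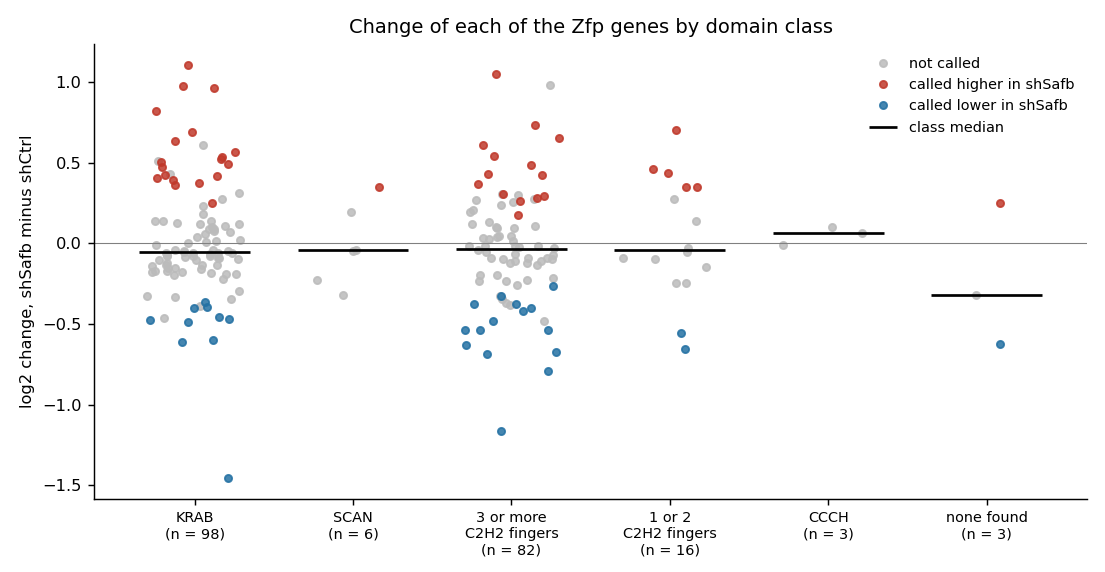
Log2 change of each of the 208 Zfp genes (shSafb minus shCtrl, vertical axis) by domain class (horizontal axis), with the class median as a bar and called genes in colour. The KRAB and larger C2H2 classes have called genes on both sides, and the medians are -0.05 for KRAB and -0.03 for 3 or more fingers.

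The next class had 3 or more C2H2 fingers and neither the KRAB nor the SCAN pattern. Its members Zfp212 and Zfp746 matched 14 and 12 of the 19 KRAB positions, short of the 15 required. The class numbered 82 members, of which 14 rose and 15 fell (35.4%, against 48.9% of all genes of that level). With shSafb replicate 1, shSafb replicate 2, shCtrl replicate 1 and shCtrl replicate 2 left out in turn, 8, 6, 8 and 11 were called higher and 7, 11, 9 and 9 lower. Besides Zfp512, the rises included Zfp275, which had 25.7 and 25.6 TPM in shSafb, against 15.02 and 15.6 TPM in shCtrl (log2 change 0.73 ± 0.07; limma adjusted p = 0.00253). Zfp131 rose as well, with 25.6 and 24.8 TPM in shSafb, against 17.4 and 15.5 TPM in shCtrl (log2 change 0.61 ± 0.07; limma adjusted p = 0.0039). Zfp281, a regulator of pluripotency in mouse stem cells, rose to 40.1 and 39.6 TPM in shSafb, against 30.1 and 29.6 TPM in shCtrl (log2 change 0.43 ± 0.05; limma adjusted p = 0.00465). Zfp335, mutated in human microcephaly, had 9.67 and 10.2 TPM in shSafb, against 6.62 and 6.63 TPM in shCtrl (log2 change 0.54 ± 0.08; limma adjusted p = 0.00869), though 19.2% of its stretches are shared with other genes. The groups were apart for each of these genes, and each call was kept in every alternative. Zfp62 rose by 0.65 on the log2 scale (limma adjusted p = 0.0107), a call that was lost without shSafb replicate 2 (0.0513).

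Of the genes of this class that fell, Zfp385b changed most, with 4.42 and 4.56 TPM in shSafb, against 12.9 and 10.2 TPM in shCtrl (log2 change -1.16 ± 0.12; limma adjusted p = 0.00299). It reached 5 TPM only through the shCtrl libraries, and the level rule favours falls in such a gene. Zfp516, an activator of Ucp1 in mouse brown fat, had 16.0 and 16.6 TPM in shSafb, against 27.2 TPM in both shCtrl libraries (log2 change -0.68 ± 0.06; limma adjusted p = 0.00242). Zfp956 had 6.47 and 6.22 TPM in shSafb, against 11.1 and 10.7 TPM in shCtrl (log2 change -0.68 ± 0.08; limma adjusted p = 0.00429). Each of these was well separated between the groups and kept its call in every alternative. Zfp106, an RNA-binding protein needed for motor function in mice, had 34.9 and 35.3 TPM in shSafb, against 57.4 and 54.1 TPM in shCtrl (log2 change -0.63 ± 0.05; limma adjusted p = 0.00165). It shares 24.7% of its stretches with other genes, and Gm26899 overlaps it on the opposite strand. Its call, too, was kept in every alternative.

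Zfp410, whose main known target is the chromatin remodeller gene Chd4, fell to 25.9 and 21.6 TPM in shSafb, against 37.6 and 33.4 TPM in shCtrl (log2 change -0.54 ± 0.11; limma adjusted p = 0.0168), a call that was lost without shCtrl replicate 1 (0.073). Chd4 itself had 173 and 172 TPM in shSafb, against 163 and 158 TPM in shCtrl, and did not pass the test (limma adjusted p = 0.0535), except with upper-quartile scaling (0.0318). Zfp629 had 8.22 and 7.84 TPM in shSafb, against 12.4 and 17.8 TPM in shCtrl (log2 change -0.79 ± 0.19; limma adjusted p = 0.0303). The groups did not overlap, but the call was lost without shSafb replicate 1 (0.0886), without shSafb replicate 2 (0.0994) and with no filter on low genes (0.0772). Zfp346, a protein that binds duplex RNA, fell by 0.42 on the log2 scale (limma adjusted p = 0.0137), a call that was lost without shSafb replicate 1 (0.0526), without shSafb replicate 2 (0.0659) and without shCtrl replicate 1 (0.0573).

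Members with 1 or 2 C2H2 fingers numbered 16, of which 5 rose and 2 fell, 43.8% against 48.9% of all genes of that level, and 3 rose and 2 fell without shSafb replicate 2. Zfp608 rose to 18.6 and 18.9 TPM in shSafb, against 11.7 and 10.9 TPM in shCtrl (log2 change 0.71 ± 0.07; limma adjusted p = 0.00253), while its paralogue Zfp609, a partner of the cohesin loader Nipbl, did not pass, at 7.86 and 8.64 TPM in shSafb, against 11.9 and 8.55 TPM in shCtrl (limma adjusted p = 0.256). Zfp740 had 63.6 and 62.3 TPM in shSafb, against 52.0 and 48.3 TPM in shCtrl (log2 change 0.35 ± 0.05; limma adjusted p = 0.00706). Zfp830 had 26.6 and 27.3 TPM in shSafb, against 21.2 and 18.9 TPM in shCtrl (log2 change 0.44 ± 0.07; limma adjusted p = 0.00884). These 3 genes were higher in both shSafb libraries and kept the call in every alternative. Zfp638, whose human form recruits the HUSH silencing complex to unintegrated retroviral DNA, had 38.8 and 41.1 TPM in shSafb, against 28.0 and 30.5 TPM in shCtrl (log2 change 0.46 ± 0.08; limma adjusted p = 0.0122), a call that was lost without shSafb replicate 2 (0.0578).

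The genes of this class that fell were Zfp706 and Zfp414. Zfp706, a small protein of 76 residues, had 49.4 and 48.6 TPM in shSafb, against 75.2 and 72.2 TPM in shCtrl (log2 change -0.55 ± 0.05; limma adjusted p = 0.00185). Zfp414 had 4.93 and 4.95 TPM in shSafb, against 8.75 and 8.25 TPM in shCtrl (log2 change -0.66 ± 0.09; limma adjusted p = 0.00546), with 26.3% of its stretches shared with other genes. It reached 5 TPM only through the shCtrl libraries, and the level rule favours falls in such a gene. Zfp706 and Zfp414 kept the call in every alternative. Zfp207, a spindle protein that binds Bub3 and the most abundant member, had 106 and 103 TPM in shSafb, against 114 TPM in both shCtrl libraries, and did not pass (limma adjusted p = 0.184). Zfp598, which senses collided ribosomes, did not pass either, at 18.2 and 20.1 TPM in shSafb, against 17.2 and 14.7 TPM in shCtrl (limma adjusted p = 0.0667); it was called with upper-quartile scaling (0.0433) and in a crossed replicate block (0.0486).

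The CCCH genes Zfp36, Zfp36l1 and Zfp36l2 did not pass the test. Zfp36 had 55.0 and 61.5 TPM in shSafb, against 64.8 and 54.9 TPM in shCtrl. Zfp36l1 had 31.4 and 33.9 TPM in shSafb, against 35.6 and 26.8 TPM in shCtrl, and Zfp36l2 had 73.7 and 75.4 TPM in shSafb, against 77.8 and 67.7 TPM in shCtrl. The groups overlapped for all 3, with log2 changes between -0.01 and 0.10. The SCAN pattern was found in 9 members, and those that also had the KRAB pattern were counted as KRAB. Of the 6 others, Zfp397 alone was called, higher by 0.35 on the log2 scale (limma adjusted p = 0.025). That call was lost on leaving out each library, without shSafb replicate 1 (0.11), shSafb replicate 2 (0.0536), shCtrl replicate 1 (0.0554) and shCtrl replicate 2 (0.0929). No finger of these patterns was found in 3 members, of which 1 rose and 1 fell. Zfp330 rose to 59.5 and 59.7 TPM in shSafb, against 49.9 and 51.8 TPM in shCtrl (log2 change 0.25; limma adjusted p = 0.0274), a call that was lost without shSafb replicate 1 (0.106), shSafb replicate 2 (0.103) or shCtrl replicate 1 (0.0814) and in 3 further settings. The actin-binding Zfp185 fell, with 6.55 and 6.52 TPM in shSafb, against 11.8 and 9.91 TPM in shCtrl (limma adjusted p = 0.00885).

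**Figure D3:**
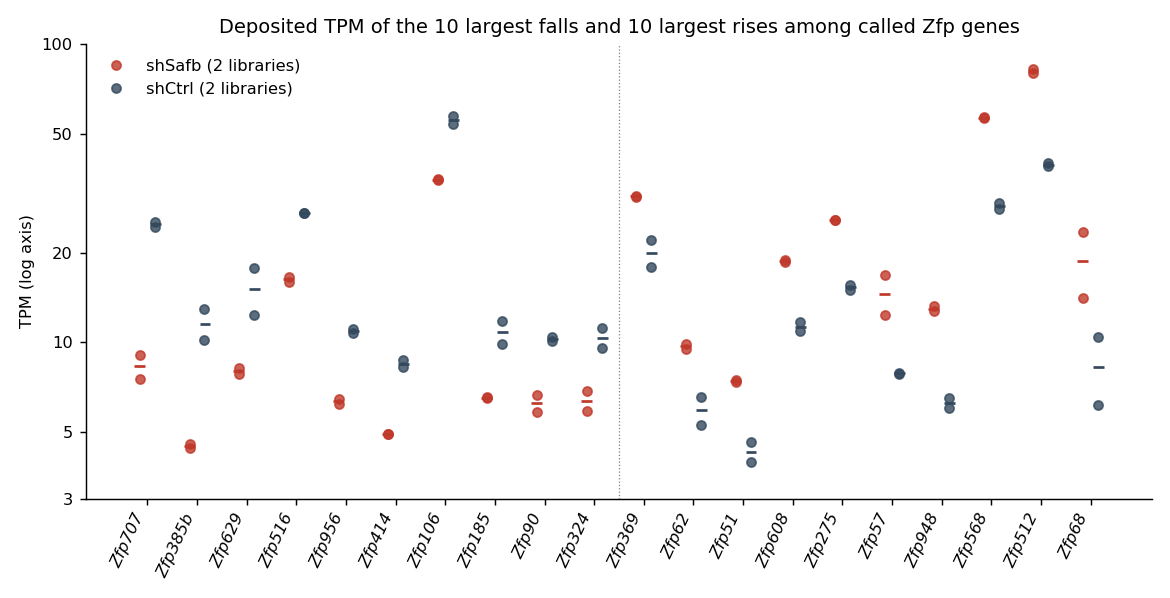
Deposited TPM (log axis) of the 10 called Zfp genes with the largest falls, left of the dotted line, and the 10 with the largest rises, right of it, in the 2 shSafb and 2 shCtrl libraries (points, with the group mean as a short bar). The groups are apart for Zfp512 (means 81.3 and 39.4 TPM) and Zfp707 (8.31 and 24.9 TPM), while Zfp68 has its shSafb values at 23.4 and 14.1 TPM and its shCtrl values at 10.4 and 6.16 TPM.

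Most of the members that were not called lay close to 0, with 114 of 140 within 0.25 on the log2 scale. A few had large differences that rested on a single library. Zfp180 had 19.1 and 4.82 TPM in shSafb, against 4.53 and 4.58 TPM in shCtrl (limma adjusted p = 0.24), so only shSafb replicate 1 stood apart, and without shSafb replicate 2 the log2 change was 1.88 (limma adjusted p = 0.00729). Zfp292 had 2.55 and 11.5 TPM in shSafb, against 7.98 and 7.69 TPM in shCtrl (limma adjusted p = 0.639), with the shSafb libraries on either side of the shCtrl values. Without shSafb replicate 1 its log2 change was 0.53 (limma adjusted p = 0.042), and without shSafb replicate 2 it was -1.29 (0.0104). Zfp444 had 17.1 and 25.3 TPM in shSafb, against 39.8 and 17.8 TPM in shCtrl (limma adjusted p = 0.546), where shCtrl replicate 1 was the high library. Of 48 Zfp genes listed for known roles, 40 were members, of which 11 rose, 5 fell and 24 did not pass. Of all genes with a mean of at least 5 TPM, 48.9% were called.

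Zfp genes within 250 kb of each other formed 22 clusters with at least 3 Zfp genes and at least 2 members, holding 93 of the 208 members. In these, 13 members rose and 11 fell (25.8%), and of the 115 members elsewhere 27 rose and 17 fell (38.3%), against 48.9% of all genes of that level called; no test was made of the difference. Leaving out shSafb replicate 1, shSafb replicate 2, shCtrl replicate 1 or shCtrl replicate 2, the clustered members called higher numbered 8, 10, 7 and 9 and those called lower 3, 7, 9 and 6, and elsewhere 14, 11, 15 and 17 were higher and 10, 13, 10 and 13 lower. Neighbouring members of a cluster had changes of the same sign in 43 of 71 pairs (60.6%), against 52.3% of 8424 pairs of neighbouring genes of that level within 250 kb. Neighbours can share transcripts, and 40 members had over 10% of their 50-base stretches in another gene. With those left out, 36 members rose and 22 fell.

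The cluster with the highest median lies on chromosome 17 from 21383748 to 22456689 (mm10), 1073 kb with 18 Zfp genes. All 6 of its members carry KRAB and had positive changes, from 0.32 to 0.97 on the log2 scale, and 5 of them were called higher. Zfp51, Zfp760 and Zfp942 had shCtrl means of 4.30, 4.55 and 4.83 TPM, so they reached 5 TPM only through the shSafb libraries. The level rule favours rises in such genes, and the cluster was singled out by its median, so these counts are no test of the cluster. Besides Zfp948 and Zfp51, Zfp53 had 22.04 and 19.9 TPM in shSafb, against 14.4 and 14.5 TPM in shCtrl (log2 change 0.53 ± 0.08; limma adjusted p = 0.00881), a call kept in every alternative. Zfp942 had 7.81 and 6.43 TPM in shSafb, against 4.72 and 4.94 TPM in shCtrl (log2 change 0.49 ± 0.13; limma adjusted p = 0.033). Zfp943, whose start lies 94 bases away, had 7.06 and 6.16 TPM in shSafb, against 5.25 and 5.14 TPM in shCtrl, and did not pass (log2 change 0.32 ± 0.11; limma adjusted p = 0.0699). In both genes of this pair, both shSafb values were above both shCtrl values. Zfp760 rose by 0.39 on the log2 scale (limma adjusted p = 0.03).

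The Zfp942 call did not outlast leaving out shSafb replicate 1 (adjusted p = 0.124), shCtrl replicate 1 (0.12) or shCtrl replicate 2 (0.0803). That of Zfp760 was lost on leaving out shSafb replicate 1 (0.0973), shSafb replicate 2 (0.121), shCtrl replicate 1 (0.105) or shCtrl replicate 2 (0.073). The 6 signs were positive under every alternative. The groups overlapped for none of these genes, so leaving out a library could hardly turn a sign. With all 4 libraries kept, 3 to 5 of the genes were called higher. Of the 16 tested Zfp genes of the cluster, members or not, 13 had positive changes, 6 were called higher, the sixth being Zfp944 under 5 TPM, and 0 lower. Of all genes, 23.9% at 5 TPM or more and 15.2% at 1 to 5 TPM were called higher. The median log2 change of all tested genes was 0.002. Zfp944 (limma adjusted p = 0.0183) lost the call when shSafb replicate 1 (0.079), shSafb replicate 2 (0.0762), shCtrl replicate 1 (0.054) or shCtrl replicate 2 (0.0716) was left out. Zfp52, Zfp229 and Zfp995 had negative changes that did not pass. No member of the cluster shared more than 5.80% of its stretches with another gene.

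**Figure D4:**
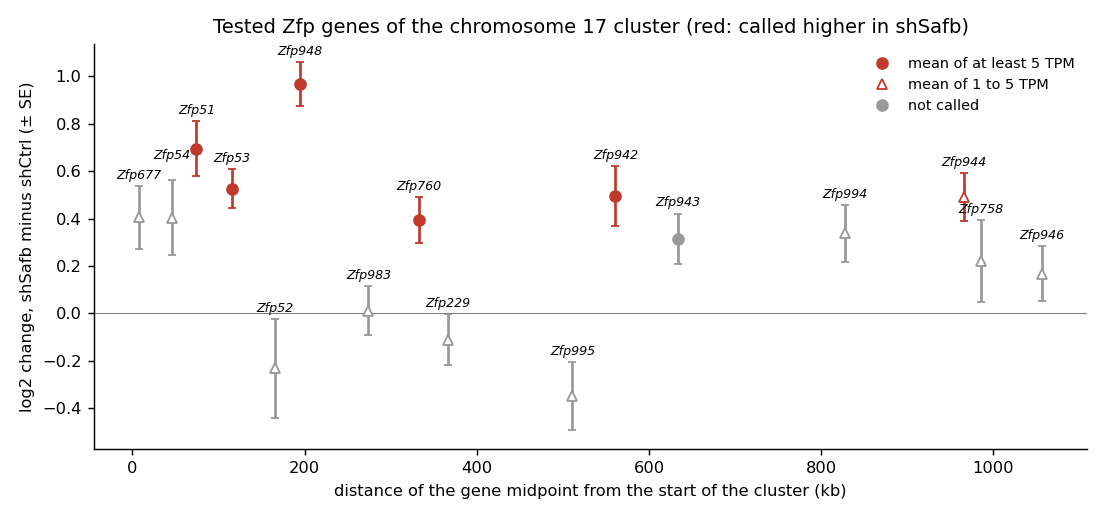
Log2 change ± SE (shSafb minus shCtrl, vertical axis) of the 16 tested Zfp genes of the chromosome 17 cluster by distance of the gene's midpoint from the start of the cluster in kb (horizontal axis), with members as filled circles, genes of 1 to 5 TPM as open triangles and called genes in red. The 6 members lie between 0.32 and 0.97, and 13 of the 16 genes lie above 0.

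Chromosome 7 holds 51 members, of which Zfp568 rose and 7 fell, 15.7% of them, against 42.8% of all 736 genes of that level on the chromosome. Without shSafb replicate 1, shSafb replicate 2, shCtrl replicate 1 or shCtrl replicate 2, the members called lower there numbered 0, 2, 3 and 4, and those called higher 1, 3, 1 and 2. On chromosome 17, 8 of 24 members rose and 2 fell (41.7%, against 49.0% of all genes of that level there), and the same omissions left 5, 6, 3 and 3 higher and 1, 1, 2 and 1 lower. In the cluster from 27689340 to 28014115 on chromosome 7, all 6 members had negative changes, from -0.40 to -0.06 on the log2 scale, and Zfp60 was called lower (limma adjusted p = 0.0227), a call that was lost without shSafb replicate 1 (0.0717), shSafb replicate 2 (0.0946) or shCtrl replicate 1 (0.0721). From 127233061 to 127885996, 9 of 10 members had negative changes, and Zfp629 was called lower, a call that 3 alternatives did not keep. A member shared up to 52.4% of its stretches with other genes in the cluster from 27689340, and up to 34.4% in the cluster from 127233061. These clusters and the one from 29768552 to 30169750 were singled out by their signs, so the counts are no test of them. Their median log2 changes were -0.14, -0.09 and -0.09, against -0.04 for all members and -0.01 for all genes of that level. In the last of them, 7 of 8 members had negative changes, the exception being Zfp568, the only member on the chromosome called higher. No member of that cluster shared more than 3.36% of its stretches with other genes. Zfp146, a gene of that cluster made almost only of zinc fingers, had 45.9 and 49.99 TPM in shSafb, against 61.9 and 60.9 TPM in shCtrl (limma adjusted p = 0.0146), a call that was lost without shSafb replicate 1 (0.0658) and without shCtrl replicate 2 (0.0577).

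A second cluster on chromosome 17, from 32765496 to 33631779, was mixed. Of its 9 members, Zfp871 rose to 30.7 and 37.2 TPM in shSafb, against 23.6 and 23.1 TPM in shCtrl (limma adjusted p = 0.0156), a call that was lost without shCtrl replicate 1 (0.0646) and without shCtrl replicate 2 (0.0588). Zfp414 and Zfp799 fell there, the call of Zfp799 (limma adjusted p = 0.0161) being lost without shSafb replicate 1 (0.0762), shSafb replicate 2 (0.0523) or shCtrl replicate 2 (0.0676). On chromosome 9, Zfp810 rose to 21.1 and 19.1 TPM in shSafb, against 13.9 and 13.0 TPM in shCtrl (log2 change 0.57 ± 0.08; limma adjusted p = 0.00643), and its 3 fellow members, Zfp653, Zfp809 and Zfp599, did not pass. In the other cluster of chromosome 9, Zfp266 rose to 52.7 and 51.5 TPM in shSafb, against 41.9 and 37.1 TPM in shCtrl (log2 change 0.42 ± 0.06; limma adjusted p = 0.00788), while Zfp560 fell. The calls of Zfp810, Zfp266 and Zfp560 were kept in every alternative.

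**Figure D5:**
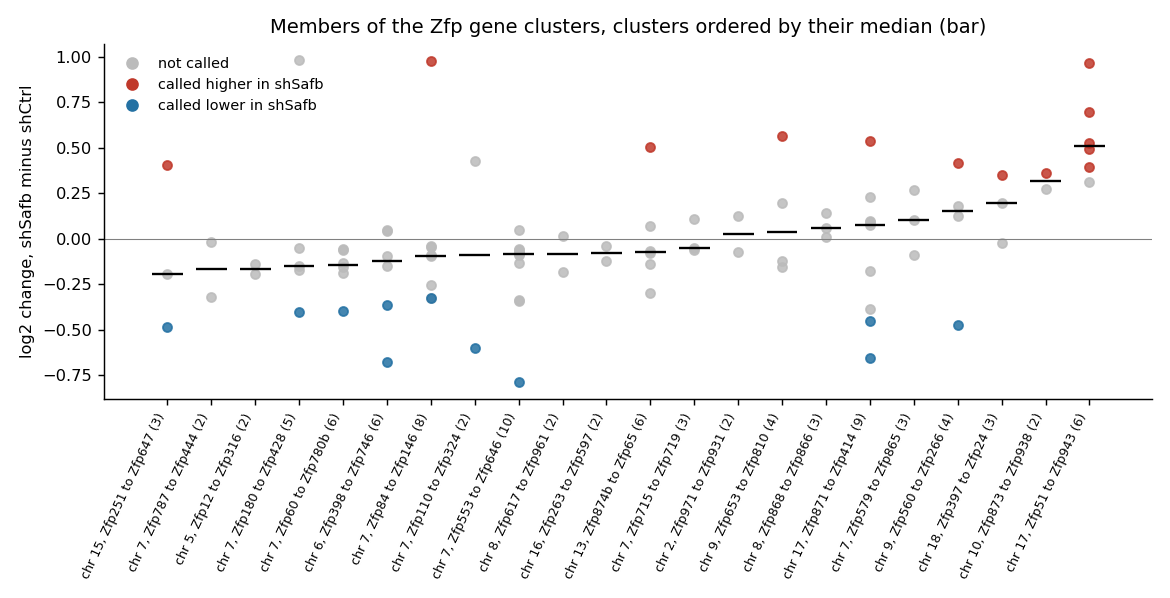
Log2 change (shSafb minus shCtrl, vertical axis) of the members of each of the 22 Zfp clusters (points), ordered along the horizontal axis by the cluster's median (bar), with the number of members in brackets and called genes in colour. The chromosome 17 cluster from Zfp51 to Zfp943 is at the right with 5 of 6 members called higher, and most other clusters have medians near 0.

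Of the proteins that KRAB zinc finger proteins work with, 27 were tested, of which 12 rose and 5 fell. That is 63.0% of a list with a median level of 47.9 TPM, against 48.9% of all genes of at least 5 TPM and 58.3% of those of at least 50 TPM. With no filter on low genes it was 37.0%, against 38.5% of all genes of at least 5 TPM, and with no scaling 44.4% against 47.6%. It was also below the share of all genes without shSafb replicate 1, shSafb replicate 2 or shCtrl replicate 2. In the remaining settings it was above. No test was made of the difference. Without shSafb replicate 1, shSafb replicate 2, shCtrl replicate 1 or shCtrl replicate 2, 6, 5, 8 and 6 were called higher and 1, 2, 3 and 4 lower, with no filter on low genes 6 were higher and 4 lower, and with no scaling 7 and 5. Trim28 did not pass, at 235 and 226 TPM in shSafb, against 237 and 236 TPM in shCtrl (log2 change -0.01 ± 0.05; limma adjusted p = 0.846). Of the HP1 genes, Cbx3 had 59.8 and 66.5 TPM in shSafb, against 34.6 and 35.9 TPM in shCtrl (log2 change 0.85 ± 0.08; limma adjusted p = 0.00221). Cbx5 and Cbx1 were called higher as well, with log2 changes of 0.46 and 0.24 (limma adjusted p = 0.00312 and 0.0245). Setdb1 rose by 0.23 on the log2 scale, near the threshold (limma adjusted p = 0.0452). Subunits of the NuRD remodelling complex changed in both directions. Gatad2a fell to 28.9 and 31.7 TPM in shSafb, against 68.9 and 61.1 TPM in shCtrl (log2 change -1.05 ± 0.07; limma adjusted p = 0.00128), while its paralogue Gatad2b rose to 14.2 and 16.3 TPM in shSafb, against 7.84 and 7.43 TPM in shCtrl (log2 change 0.93 ± 0.09; limma adjusted p = 0.00286). The calls of Cbx3, Gatad2a and Gatad2b were kept in every alternative. Among the other zinc finger families, 17 of 56 genes with a mean of at least 5 TPM rose and 6 fell. By family, 6 were higher and 0 lower of 11 Zc3h genes and 9 and 5 of 32 Zbtb genes. For Zscan it was 1 and 1 of 6, and for Zkscan 1 and 0 of 7. The called share of the 56 was 41.1%, with 30.4% higher, against 48.9% and 23.9% of all genes of that level. The same omissions left 6, 8, 7 and 11 of the 56 called higher and 2, 3, 3 and 3 lower, and with no filter on low genes 8 were higher and 5 lower.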

How the data were processed

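RNA of 2 shSafb and 2 shCtrl libraries, strand-specific and depleted of ribosomal RNA, was analysed; group and replicate number come from the titles. HISAT2, HTSeq, StringTie and DESeq2 with mm10 are named in the submitters' processing notes, without versions; the strand setting of the counting was not given in the sources used here. The values are the authors' deposited TPM, which hold no counts. Rows of 6 repeated identifiers were summed. Genes with a mean of at least 1 TPM (13111) were scaled by the median of ratios, and log2(TPM + 1) was fitted with limma 3.58.1 in R 4.3.3 (group only, intensity trend, two-sided, Benjamini-Hochberg adjustment over all tested genes, threshold 0.05); log2 changes are on this scale and understate those of low genes. Exact permutation of 2 against 2 libraries reaches no p below 0.333 and was not used. The script was tested on simulated data.

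Domain classes came from translated GENCODE release 21 transcripts, since no protein table was at hand, in place of the planned RefSeq proteins: KRAB with at least 15 of 19 positions matched, SCAN with at least 15 of 20, C2H2 and CCCH fingers by spacing. Classes were assigned in that order, so a member with both the KRAB and the SCAN pattern counts as KRAB. Coordinates are GENCODE's (GRCm38). Shared stretches are a gene's 50-base exonic stretches that occur in transcripts of another gene.

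The members and lists were chosen with earlier results of these data known. Named genes are Safb; the 5 largest rises and falls called in each class; the 4 highest members; the 3 on either side of the threshold; members with listed roles; cluster members; and up to 5 partner genes. Zfp369 in the plot of values, the cluster genes under 5 TPM, Zfp180, Zfp292, Zfp444, Zfp512b, Zfp609, Trim28, Chd4, Cbx1, Cbx5, Setdb1 and the markers named were chosen after their values were seen. Alternatives covered the pseudocount, filter, scaling, variance trend, replicate block, each library left out, a fold of 1.5, and the rules for members and classes.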

Additional observations from a re-analysis of the deposited data

How the results depend on the processing

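The counts of Zfp genes called depended on the filter and on each library. Of the 68 called members, 26 kept the call in every alternative fitted, 42 lost it in at least 1, and 0 changed sign. Most alternatives could hardly have changed a sign. The replicate blocks and the variance trend leave the log2 change as it is, and leaving out a library seldom turns the sign where the groups do not overlap. With no filter on low genes, 25 members and 12 KRAB members were called higher, 13 of those without KRAB, 8 of those with 3 or more C2H2 fingers and 16 of those outside clusters. Requiring a fold of at least 1.5 left 11 higher and 10 lower, and 6 and 3 of the KRAB members. Leaving out 1 library gave 21 to 26 members higher and 13 to 20 lower, and 9 to 12 and 3 to 7 of the KRAB members; the group left with 1 library was then assumed to vary like the other. Another pseudocount, scaling, a model without variance trend, a lower KRAB limit of 12 positions and leaving out genes with shared stretches kept each of these counts within 1.5 times. The Zfp292 log2 change, not called with all libraries, was 0.53 without shSafb replicate 1 (limma adjusted p = 0.042) and -1.29 without shSafb replicate 2 (0.0104), past the threshold in opposite directions; the cause was not tested.

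The replicate numbers are shared in the titles only, and deviations of same-numbered libraries had a correlation of -0.127 over genes with a mean of at least 5 TPM. With the number as a replicate block, 31 members were called higher and 27 lower (KRAB 16 and 10), and with crossed numbers, an alternative chosen after seeing the data, as were the KRAB limit and the shared stretches, 35 and 27. TPM keep no depth, so no counting error can be given.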
